A study of Mus musculus with 31 samples.

Results

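The Peg3 domain is a cluster of imprinted genes on mouse chromosome 7, and 3 of its genes were examined here: Peg3 (gene ID 18616, minus strand), Usp29 (57775, plus strand) and Zim1 (22776, minus strand). They were taken by symbol from allele-specific RNA-seq tables that list 17484 features in all, and each had a row of its own. RNA came from first-generation hybrids of the mouse strains C57BL/6 (B6) and JF1, whose many sequence differences tell the maternal from the paternal copy of a transcript. BJ1 had a B6 mother and a JF1 father, and JB6 was the reciprocal cross. For each cross the tables hold 2 libraries of undifferentiated embryonic stem cells (ESCs), 2 of ESC-derived cortical cultures at day 12 and 2 at day 21, 3 from E13.5 embryos (labelled DT) and 4 (BJ1) or 3 (JB6) of newborn (P0) cortex, or 25 libraries in all. Cultures were grown in a defined default medium with B27, with cyclopamine, a Hedgehog pathway inhibitor, present from day 2 to day 10. In culture the B6 parent carried an Oct4-GFP transgene and, per the deposited description, residual CBA sequence, whereas the animals came from pure strains. The labels name no separate lines within a cross, so cross and cell line cannot be told apart in culture. They give all 12 culture libraries, 1 of 6 E13.5 libraries and 1 of 7 P0 libraries as male, so that sex also differs between culture and animals. They do not say whether replicates are separate cultures or animals, and p-values measure only the spread between these samples.

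An imprinted gene is read mainly from the copy inherited from one parent, according to DNA methylation marks laid down in the egg or sperm. In the Peg3 domain the promoter region shared by Peg3 and Usp29 carries such a mark on the maternal chromosome, and both genes are known as paternally expressed. Peg3 encodes a large zinc finger protein that binds DNA and is known for roles in growth and maternal behaviour. Usp29 encodes a ubiquitin-specific protease, and Zim1 encodes a zinc finger protein known as a maternally expressed gene of the same domain.

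Peg3 and Usp29 start close together and are read in opposite directions, so the stretch between their starts is shown here beside the stretch upstream of Zim1, which is read from the other parental copy. Sequences are from RefSeq on the GRCm38.p6 build, which differs from the mm9 build of the deposited tables. They are written 5′ to 3′ on the minus strand, the strand of Peg3 and Zim1, with each CpG dinucleotide, the site of DNA methylation, in capitals.
Peg3 to Usp29, chr7:6730463-6730558: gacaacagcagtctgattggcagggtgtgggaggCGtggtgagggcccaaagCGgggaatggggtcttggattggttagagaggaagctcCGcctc
upstream of Zim1, chr7:6696541-6696682: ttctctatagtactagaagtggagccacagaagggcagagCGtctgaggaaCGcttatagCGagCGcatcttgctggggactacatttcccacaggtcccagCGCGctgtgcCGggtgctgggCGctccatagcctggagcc
The stretch between Peg3 and Usp29 is 96 bases long with 3 CpG, and the stretch of 142 bases upstream of Zim1 has 8. RefSeq promoter windows of 300 bases around the starts hold 13 CpG for Peg3, 17 for Usp29 and 20 for Zim1, against a median of 7 over 32851 windows. The share of all windows with fewer CpG is 62.1% for Peg3, 68.6% for Usp29 and 73.5% for Zim1, so these counts are not unusual. The Peg3 and Usp29 windows have 263 bases in common. Each of the 2 holds the letters TGACGTCA, the cAMP response element, which 1.79% of all windows hold on either strand, and the letters CCAAT, which 37.41% hold. The Zim1 window holds neither. The letters GCCATNTT, the core bound by the factor YY1, are in none of the 3 windows and in 6.052% of all windows.

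Depth was 5192382 to 8618253 allele-specific read bases per library. A read base is the base of 1 read at 1 strain difference, and 1 read over several differences gives several, so intervals and limits cover counting error only. Peg3, Usp29 and Zim1 each had up to 15 strain differences covered. Levels are given as CPM, read bases per 1000000 read bases of the library, and are compared across libraries within a gene, not between genes. As a reference for wrongly assigned alleles, mitochondrial RNA, which is inherited from the mother, was read as paternal at 0.105% to 0.426% in BJ1 and at 4.47% to 5.25% in JB6. Summed markers of neurons stood highest at P0 (10720 to 11530 CPM) and those of pluripotent cells in ESCs (1383 to 2679), with Pou5f1 at 0 in every later library. Neuron markers stood at 344 to 516 CPM in ESCs and 1507 to 2639 at E13.5. In culture they stood at 176 to 610 at day 12 and 1365 to 1970 at day 21. Neural progenitor markers stood at 179 to 285 CPM in ESCs, 914 to 1034 at E13.5 and 340 to 503 at P0. In culture these stood at 158.5 to 399 at day 12 and 165.7 to 218.5 at day 21. Markers of mesenchyme and meninges (8 of 8 listed genes detected at every stage) stood at 2.75 to 18.9 CPM in ESCs, 1724 to 2724 at day 12, 7244 to 11510 at day 21, 14.3 to 806 at E13.5 and 128 to 248 at P0. Markers of epithelium and endoderm stood at 2065 to 3488 at day 12 and at 2490 to 3205 at day 21, and at no more than 21.7 in the animals.

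Peg3 was read from the paternal copy in every library. In ESCs its maternal share was 1.42% and 0.997% of read bases in the 2 BJ1 libraries and 0% and 0.312% in the 2 JB6 libraries. At day 12 it was 1.14% and 1.43% in BJ1 and 0.269% and 0.658% in JB6, and at day 21 it was 1.18% and 1.46% in BJ1 and 0.211% and 0.36% in JB6. Over the 6 E13.5 libraries the share ran from 0% to 1.63%, and over the 7 P0 libraries from 0% to 0.727%. No library of any stage came near an even reading of both copies, and the highest exact 95% upper limit was 11.9%, in the ESC library JB6 replicate 1 with only 29 read bases. All 892 read bases of the 3 P0 JB6 libraries were paternal, with an exact 95% upper limit of 0.413% for the maternal share.

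The maternal over paternal ratio of Peg3, fitted over both crosses with a separate term for strain, was -7.26 ± 0.21 in undifferentiated ESCs (log2 ± SE). It was -7.07 ± 0.09 for the day 12 cultures and -7.31 ± 0.09 for the day 21 cultures. In the animals it was -7.23 ± 0.15 (E13.5) and -9.62 ± 0.20 (P0). It passed at every stage (edgeR quasi-likelihood test, adjusted p from 3.93e-42 to 1.51e-18 over ESCs, day 21, E13.5 and P0, and listed at 0 at day 12). Without E13.5 JB6 replicate 2 the ratio there was -7.97. In ESCs Peg3 was the 1 member tested, where 1.4% of all features passed. Peg3, Usp29 and Zim1 all passed at day 12 (1.78% of features) and day 21 (1.38%). Peg3 and Usp29 passed at E13.5, where Zim1 fell below the minimum of 20 read bases per library (0.49%), and at P0, where Zim1 was tested and did not pass (0.548%).

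The few maternal read bases of Peg3 were not shared equally by the crosses. Pooled over libraries they made up 1.29% in BJ1 and 0.413% in JB6 at day 12, and 1.33% in BJ1 and 0.285% in JB6 at day 21. The strain term, B6 over JF1 at equal parent, was 0.82 ± 0.17 at day 12 (adjusted p 3.24e-05, edgeR quasi-likelihood test) and 1.10 ± 0.20 at day 21 (adjusted p 2.96e-05). Strain terms passed for 35.9% of all features at day 12 and 34.4% at day 21. The day 12 strain call was lost without JB6 replicate 1 (0.49, adjusted p 0.0751) and in DESeq2 (0.80, adjusted p 0.11). Mitochondrial RNA showed the same order, with more JF1 RNA read as B6 than the reverse, and the part of wrong assignment in the Peg3 values was not tested.

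Usp29 was paternal in the animals and in BJ1 cultures, while JB6 cultures carried a sizeable maternal portion. At E13.5 the maternal share was 0% in 5 of 6 libraries and 2.35% in BJ1 replicate 3, with 2 of 431 read bases maternal in all. At P0 it was 2.19%, 2.27%, 2.76% and 2.70% in the 4 BJ1 libraries and 0%, 0% and 0.5% in the 3 JB6 libraries. At day 12 it was 0% and 4% in BJ1 but 17.02% and 37.0% in JB6, and at day 21 it was 4% and 5.09% in BJ1 but 31.3% and 33.3% in JB6. The culture groups of the crosses did not overlap at either day, with only 2 libraries per cross. Strain terms passed for 35.9% of all features at day 12 and 34.4% at day 21. How many features separate the crosses without overlap was not counted. Pooled, 25 of 93 read bases were maternal in JB6 at day 12 (26.9%, exact 95% interval 18.2% to 37.1%) and 22 of 68 at day 21 (32.4%, 21.5% to 44.8%), against 1 of 37 (2.70%, 0.0684% to 14.2%) and 5 of 109 (4.59%, 1.51% to 10.4%) in BJ1. ESCs gave too few read bases for a test at the minimum. All 18 were paternal in BJ1, with an exact 95% upper limit of 18.5%, and 5 of 6 were maternal in JB6. Without a minimum, the parental term in ESCs did not pass (-2.01). The strain term was -4.11 (adjusted p 0.015, edgeR quasi-likelihood test, 4385 of 14226 features passed). It rests on 24 read bases, and that strain test was not planned.

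**Figure D1:**
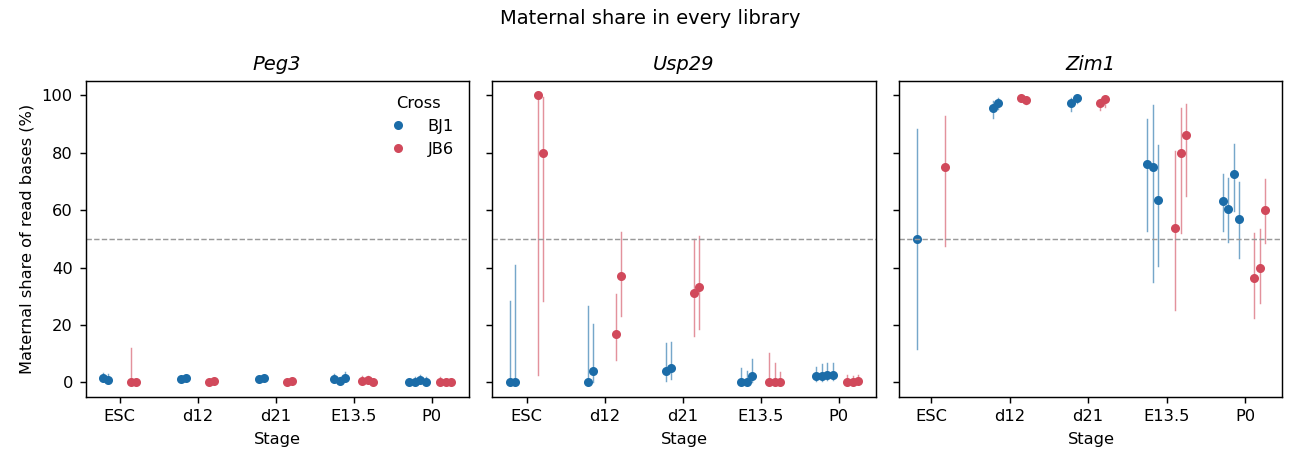
Maternal share of read bases in percent (vertical axis) by stage for Peg3, Usp29 and Zim1, with 1 point per library, blue for BJ1 and red for JB6. Vertical lines are exact 95% binomial intervals, the dashed line marks 50%, and libraries with no read base are left out. Peg3 stays at or below 1.63% throughout, Usp29 lies at 17.02% or above in JB6 libraries of ESCs, day 12 and day 21 and at no more than 5.09% in all others, and Zim1 lies above 95% at day 12 and day 21.

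The fitted maternal over paternal ratio of Usp29 was -3.18 ± 0.50 at day 12 (adjusted p 2.64e-08) and -2.68 ± 0.34 at day 21 (2.61e-07). In the animals it was -7.84 ± 0.39 in E13.5 tissue (adjusted p 2.32e-24) and -6.85 ± 0.20 in P0 cortex (4.83e-27, edgeR quasi-likelihood test). It was -4.20 without day 12 BJ1 replicate 2 and -7.69 without P0 JB6 replicate 3. Without E13.5 BJ1 replicate 3, which held all maternal read bases of that stage, it was -9.13. Its strain term was -1.74 ± 0.58 at day 12 (adjusted p 0.0097), -1.63 ± 0.37 at day 21 (0.000478) and 1.59 ± 0.44 at P0 (0.00259, where 48.2% of features passed). The sign was thus opposite in culture and at P0: maternal read bases lay mainly in JB6 in culture and mainly in BJ1 at P0. The P0 order was also that of mitochondrial RNA, where P0 JB6 libraries had JF1 RNA read as B6 at 4.76% to 5.06%. The part of wrong assignment in the Usp29 values was not tested. The strain term differed between day 21 and P0 by -3.22 ± 0.60 (adjusted p 7.26e-05, 18% of features passed), and between day 12 and E13.5 by -2.90 ± 1.12 (adjusted p 0.0713, 16.1% passed). These terms come from few maternal read bases. The day 12 term did not pass in DESeq2 (-1.83, adjusted p 0.139) or without either BJ1 library or JB6 replicate 2 (adjusted p 0.0538 to 0.145), and the P0 term did not pass with all counts divided by 3 (adjusted p 0.0789) and was 2.43 without JB6 replicate 3.

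Within JB6 alone the ratio of Usp29 was -1.44 ± 0.44 at day 12 (adjusted p 0.00603, 25.7% of features passed) and -1.06 ± 0.42 at day 21 (adjusted p 0.0705, edgeR quasi-likelihood test, 21.8% passed), contrasts in which parent and strain are not separated. The paternal copy thus gave more read bases than the maternal one in every JB6 library at both days, but by far less than in the JB6 animals, where the ratio was -9.00 ± 0.66 at E13.5 and -8.45 ± 0.35 at P0. The 12 culture libraries held 331 Usp29 read bases together, or 22.1 per strain difference. The authors' removal of non-B6 sequence acted only on positions with more than 50 reads in that pool. Peg3 had 1183 read bases per strain difference and Zim1 183. The part of undetected CBA or DBA sequence in the Usp29 values was not tested.

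Zim1 was read almost wholly from the maternal copy in culture and from both copies in P0 cortex. It was almost silent in ESCs, with 6 and 0 read bases in BJ1 and 0 and 16 in JB6, of which 15 of 22 were maternal. At day 12 its maternal share was 95.7% and 97.5% in BJ1 and 99.0% and 98.5% in JB6, and at day 21 it was 97.4% and 99.1% in BJ1 and 97.3% and 98.9% in JB6. These 8 libraries of the culture all lay above every library of the animals. At E13.5 the share was 76.2%, 75% and 63.6% in BJ1 and 53.9%, 80% and 86.4% in JB6, from only 8 to 22 read bases per library. At P0 it was 63.3%, 60.5%, 72.6% and 56.9% in the 4 BJ1 libraries and 36.4%, 40% and 60% in the 3 JB6 libraries. Pooled, 74 of 101 read bases were maternal at E13.5 (73.3%, exact 95% interval 63.5% to 81.6%) and 277 of 483 at P0 (57.3%, 52.8% to 61.8%), against 1602 of 1633 at day 12 (98.1%) and 1071 of 1091 at day 21 (98.2%).

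The fitted maternal over paternal ratio of Zim1 was 5.60 ± 0.16 at day 12 (adjusted p 6.15e-243) and 5.70 ± 0.19 at day 21 (9.53e-25, edgeR quasi-likelihood test). At P0 it was 0.31 ± 0.17 (adjusted p 0.782). With no minimum on read bases, the E13.5 ratio was 1.43 (adjusted p 0.0746). Its strain term was 0.47 ± 0.17 at P0 (adjusted p 0.0182), and pooled shares there were 63.2% in BJ1 and 47.8% in JB6. That call was lost with counts divided by 3, in DESeq2 and without any of 3 libraries (adjusted p 0.0589 to 0.132 over these). At day 12 the strain term was -0.72 ± 0.27 (adjusted p 0.0234), and it was lost with counts divided by 3, in DESeq2 and without BJ1 replicate 1 or JB6 replicate 1 (adjusted p 0.0951 to 0.265).

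The comparison of culture with animals asked whether each gene was read from the same copy in ESC-derived cortical cells as in cortex. Between day 21 and P0 the log2 maternal over paternal ratio of Zim1 differed by 5.38 ± 0.31 (adjusted p 8.74e-18) and that of Usp29 by 4.17 ± 0.73 (adjusted p 0.000196), both more maternal in culture. These were 2 of 3 members, against 0.909% of all features (edgeR quasi-likelihood contrast in a fit of all 5 stages). For Peg3 the difference was 2.31 ± 0.78 (adjusted p 0.289) over both crosses. Within BJ1 it passed (1.92 ± 0.61, adjusted p 0.0341), and within JB6 it was 2.69 ± 1.40 (adjusted p 0.292). The Zim1 difference passed within BJ1 (5.10 ± 0.43, adjusted p 6.77e-13, 10.9% of features passed) and within JB6 (5.65 ± 0.45, adjusted p 1.53e-13, 8.03% passed). The Usp29 difference was 7.39 ± 0.84 within JB6 (adjusted p 3.96e-09) and 0.96 ± 0.89 within BJ1 (adjusted p 0.586). Only 1 of 490 Usp29 read bases was maternal in P0 JB6, so the size of the JB6 value is uncertain. Without day 21 BJ1 replicate 2 the Usp29 difference over both crosses was 4.08 with an adjusted p of 0.0504, and without P0 JB6 replicate 3 it was 5.03.

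Between day 12 and E13.5 the difference was 4.66 ± 1.52 for Usp29 (adjusted p 0.215, edgeR) and 0.16 ± 0.34 for Peg3 (0.975), so that 0 of 2 tested members passed, against 0.912% of features (735 of 9211 at an unadjusted p under 0.05). In limma on log2 ratios the Usp29 difference passed (3.27, adjusted p 2.95e-07), and within JB6 it was 7.56 ± 1.06 in edgeR (adjusted p 6.76e-07, 8.41% of features passed). E13.5 JB6 held 0 maternal of 186 Usp29 read bases, so the counts give no finite size for that JB6 value. Zim1 was below the minimum at E13.5. Without a minimum its difference was 4.16 (adjusted p 6.41e-09, where 0.629% of features passed), and its difference between day 12 and ESCs was 4.83 (adjusted p 0.00921, 0.236%). Within the culture and within the animals no member tested at the minimum passed in edgeR. From ESCs to day 12 only Peg3 was tested (adjusted p 0.969, 0.341% of features passed). From day 12 to day 21 Peg3, Usp29 and Zim1 were tested (adjusted p at least 0.991, 0.0495%). From E13.5 to P0 Peg3 and Usp29 were tested (adjusted p at least 0.751, 0.136%). For Zim1 the change from E13.5 to P0 without a minimum was -1.12 (adjusted p 0.666).

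The levels of the 2 copies of Zim1 show which of them moved. Its maternal copy stood at 27.7 to 49.6 CPM at day 21 and at 2.77 to 8.80 at P0, and the groups did not overlap. Its paternal copy went the other way, from 0.322 to 1.35 CPM at day 21 and from 2.99 to 5.75 at P0, again without overlap. In the fits of each copy over all libraries, the maternal copy was higher at day 21 than at P0 by 2.71 ± 0.32 (75.5% of features passed, adjusted p 2.64e-08) and the paternal copy was lower, with a log2 difference of -2.55 ± 0.49 (adjusted p 4.83e-05, edgeR quasi-likelihood test, 76% passed). Between day 12 and E13.5 the maternal copy was higher by 5.05 ± 0.38 (adjusted p 1.21e-11, 74.3% passed), and the paternal copy differed by 0.85 ± 0.52 (adjusted p 0.14, 75.3% passed). From E13.5 to P0 both copies rose, the maternal by 1.70 ± 0.37 (adjusted p 0.00026, 70% passed) and the paternal by 2.69 ± 0.42 (adjusted p 4.1e-06, 67.9% passed). From ESCs to day 12 the maternal copy rose by 6.35 ± 0.52 (adjusted p 7.17e-11, 71.4% passed) and the paternal by 1.79 ± 0.67 (adjusted p 0.0199, 69.1% passed). That paternal rise was lost with counts divided by 3 and without any of 3 libraries (adjusted p 0.0534 to 0.0773). ESC JB6 replicate 2 held 16 of the 22 Zim1 read bases of ESCs, and without it the maternal rise was 8.21 and the paternal rise 2.60.

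**Figure D2:**
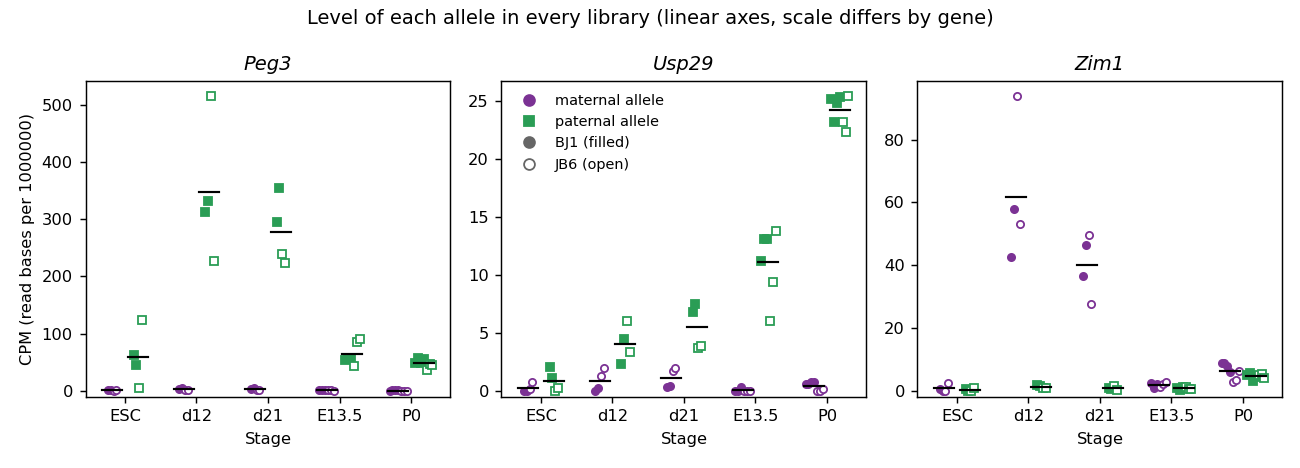
CPM (vertical axis, linear, own scale for each gene) of the maternal copy (purple circles) and the paternal copy (green squares) by stage, with 1 point per library, filled for BJ1 and open for JB6. Black bars are the mean of a stage. The paternal copy of Peg3 is highest in day 12 and day 21 cultures, that of Usp29 at P0 (22.3 to 25.5), and the maternal copy of Zim1 at day 12 and day 21.

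For Usp29 the paternal copy was lower in culture than in the animals. It stood at 2.28 and 4.44 CPM in BJ1 and 6.03 and 3.37 in JB6 at day 12, at 6.75 and 7.52 in BJ1 and 3.72 and 3.86 in JB6 at day 21, at 6.03 to 13.8 over the E13.5 libraries and at 22.3 to 25.5 over the P0 libraries. The fitted difference was -1.35 ± 0.32 between day 12 and E13.5 (adjusted p 0.000586) and -2.13 ± 0.31 between day 21 and P0 (adjusted p 1.04e-06, edgeR quasi-likelihood test). Its maternal copy stood at 1.24 and 1.97 CPM in the JB6 libraries at day 12 and at 1.69 and 1.93 at day 21, and at 0.403 or less in every BJ1 culture library. In the animals it reached at most 0.704 CPM, and a count of 0 in a P0 library allows up to 0.384 to 0.539 CPM. Between day 12 and E13.5 the maternal copy was higher by 3.59 ± 1.10 (adjusted p 0.00483). Both maternal read bases of E13.5 lay in BJ1 replicate 3, without which the value was 5.54, and without day 12 JB6 replicate 2 it was 2.86 (adjusted p 0.0477). Between day 21 and P0 the value was 1.24 ± 0.81 (adjusted p 0.165), and it passed with counts divided by 3 (1.71, adjusted p 0.0446, edgeR quasi-likelihood test). For Peg3 the paternal copy was higher by 2.51 ± 0.40 at day 12 than at E13.5 (adjusted p 1.03e-05) and by 2.55 ± 0.39 at day 21 than at P0 (adjusted p 4.01e-06), and its trace of maternal read bases was higher too (2.70 ± 0.51 and 4.52 ± 0.60).

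**Figure D3:**
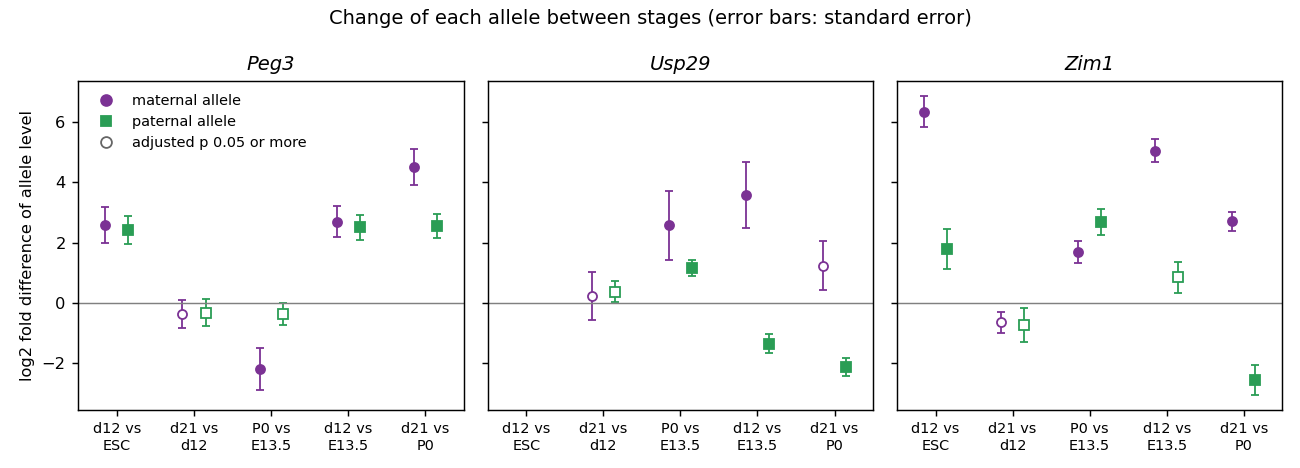
Fitted log2 differences between stages (vertical axis) of the maternal copy (purple circles) and the paternal copy (green squares), with SEs derived from the test statistic as bars. Open symbols did not pass at an adjusted p of 0.05, and Usp29 was below the minimum between day 12 and ESCs. For Zim1 between day 21 and P0 the maternal copy lies at 2.71 and the paternal copy at -2.55, on opposite sides of 0.

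Summed over both copies, Peg3 and Zim1 were high in culture and low in the animals, and Usp29 had the reverse order. The level of Peg3 in CPM was 63.9 and 46.1 in BJ1 ESCs and 4.98 and 123.5 in JB6 ESCs, 317 and 336 in BJ1 and 518 and 229 in JB6 at day 12, and 299 and 360 in BJ1 and 240 and 224 in JB6 at day 21. At E13.5 it ran from 43.7 to 90.6 (median 56.6) and at P0 from 35.7 to 57.5 (median 48.4). Every day 12 and day 21 library lay above every library of the other stages. Peg3 rose by 2.43 ± 0.45 from ESCs to day 12 (adjusted p 3.85e-05), and it was higher by 2.51 ± 0.39 at day 12 than at E13.5 (3.76e-06) and by 2.56 ± 0.37 at day 21 than at P0 (1.36e-06, edgeR quasi-likelihood test). Without ESC JB6 replicate 2 the rise from ESCs was 3.12. In the order day 12, day 21, E13.5, ESC and P0 by mean level, the neighbours day 12 and day 21 did not differ past the threshold (-0.32 ± 0.42, adjusted p 0.548), nor did E13.5 and P0 (-0.38 ± 0.34, adjusted p 0.331), and the ESC libraries spanned the range of both. Among libraries labelled female, the difference from E13.5 to P0 was -0.44 with an adjusted p of 0.026.

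The level of Zim1 was 44.4 and 59.4 CPM in BJ1 and 95.0 and 53.8 in JB6 at day 12, 37.7 and 46.7 in BJ1 and 50.9 and 28.0 in JB6 at day 21, 1.18 to 3.46 (median 2.86) at E13.5 and 7.63 to 14.6 (median 10.2) at P0. In ESCs it was 1.09 and 0 in BJ1 and 0 and 3.08 in JB6. The ESC and E13.5 ranges overlapped, while P0 lay above both and the culture above P0. Zim1 rose by 5.83 ± 0.47 from ESCs to day 12 (adjusted p 3.85e-11, 77% of features passed) and by 2.06 ± 0.33 from E13.5 to P0 (4.37e-06, 75.5% passed). It was higher by 4.62 ± 0.35 at day 12 than at E13.5 (9.22e-12, 79.5% passed) and by 1.93 ± 0.29 at day 21 than at P0 (1.41e-06, edgeR quasi-likelihood test, 80.7% passed). Without ESC JB6 replicate 2 the rise from ESCs was 7.29. Day 21 against day 12 gave -0.64 ± 0.32 (adjusted p 0.1, where 51.1% of features passed) and -0.59 with counts divided by 3 (adjusted p 0.018).

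Usp29 stood at 0.172 to 2.00 CPM in ESCs, 2.28 to 7.27 at day 12, 5.41 to 7.92 at day 21, 6.03 to 13.8 at E13.5 and 22.3 to 26.1 at P0. It was lower in culture than in the animals, with a log2 difference of -1.08 ± 0.27 between day 12 and E13.5 (adjusted p 0.000642) and of -1.87 ± 0.25 between day 21 and P0 (1.83e-07), and it rose by 1.18 ± 0.21 from E13.5 to P0 (1.32e-05, edgeR quasi-likelihood test). Day 21 against day 12 gave 0.38 ± 0.29 (adjusted p 0.29), and the ranges of day 21 and E13.5 overlapped. All 3 members passed between day 21 and P0 and between day 12 and E13.5, where 80.7% and 79.5% of all features passed, so that this count is not particular to them. In bulk RNA, fewer cells of a type and less RNA per cell cannot be told apart.

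**Figure D4:**
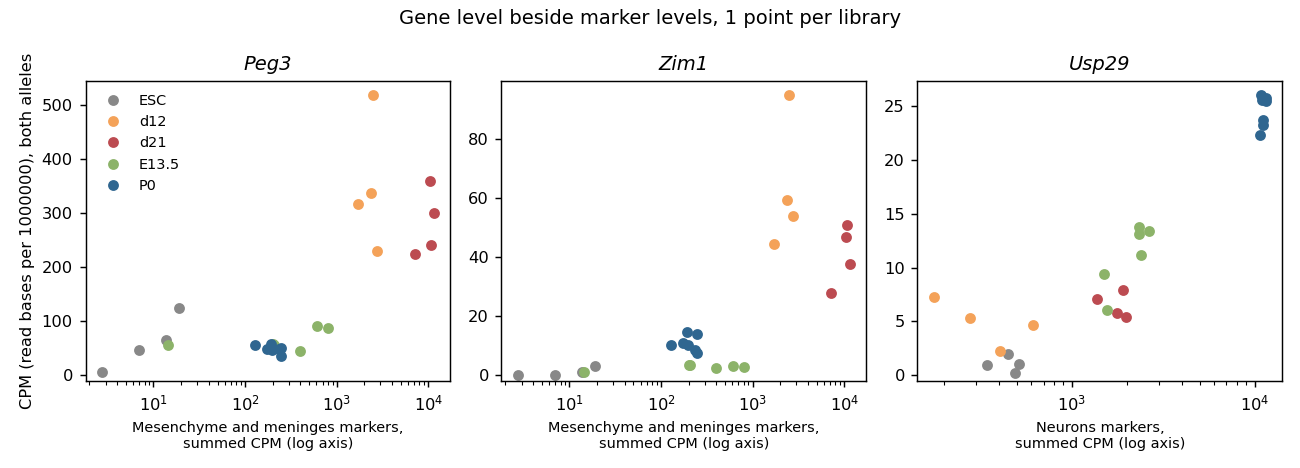
Level of Peg3, Zim1 and Usp29 over both copies (vertical axes, CPM, linear) against the summed level of marker genes in the same library (horizontal log axes), with 1 point per library coloured by stage. Peg3 and Zim1 are set against mesenchyme and meninges markers and Usp29 against neuron markers. The culture libraries at day 12 and day 21 hold the highest Peg3 and Zim1 levels at marker sums above 1724, and P0 holds the highest Usp29 levels at sums above 10720.

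Mesenchyme and meninges markers, like Peg3 and Zim1, stood higher in the day 12 and day 21 cultures than at every other stage, but the order of stages differed. The marker sum was 1724 to 2724 CPM at day 12 and 7244 to 11510 CPM at day 21, whereas Zim1 and Peg3 had lower mean levels at day 21. Neither gene's lower level passed (adjusted p 0.1 for Zim1 and 0.548 for Peg3, edgeR quasi-likelihood test). The median sum was 302 CPM at E13.5 and 196 CPM at P0, whereas Zim1 was higher at P0. At E13.5 the sum ran from 14.3 in BJ1 replicate 2 to 806 in JB6 replicate 2. In these 2 libraries Peg3 stood at 55.4 and 86.2 CPM, Zim1 at 1.18 and 2.65, and the maternal share of Zim1 at 75% and 80%. Markers of epithelium and endoderm were also highest in culture, with median sums of 2763 CPM at day 12 and 2816 CPM at day 21. Their medians were 388 CPM in ESCs, 13.1 CPM at E13.5 and 3.37 CPM at P0. Over the 25 libraries the levels of Peg3 and Zim1 had a correlation of 0.80 on the log2 scale with a pseudocount of 1, those of Peg3 and Usp29 one of -0.12 and those of Zim1 and Usp29 one of 0.21, as descriptions over libraries that share stage and depth. The part of other cell types in the allelic and level differences was not tested.

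In 12 edgeR tests of a member's total level between the crosses none passed the threshold, and 2 had an unadjusted p under 0.05 (Peg3 at day 21 and Zim1 at P0). DESeq2 called none of them either, with no adjusted p for Usp29 at day 12. Usp29 and Zim1 in ESCs and Zim1 at E13.5 were below the minimum and not tested. Peg3 in ESCs gave -0.14 ± 1.21 for BJ1 over JB6 (adjusted p 0.9996), with the JB6 libraries at 4.98 and 123.5 CPM on either side of both BJ1 libraries. Without JB6 replicate 1 the value was -1.10 (adjusted p 0.00448) and without JB6 replicate 2 it was 3.45 (adjusted p 4.44e-07, edgeR quasi-likelihood test). Peg3 at E13.5 (-0.37, adjusted p 0.419) passed without JB6 replicate 1 (-0.61, adjusted p 0.0182), and Zim1 at day 12 (-0.56, adjusted p 0.42) passed without JB6 replicate 2 (-0.84, adjusted p 0.0426). In JB6 replicate 2 the epithelium and endoderm markers summed to 1331 CPM, the highest of the ESC libraries. In edgeR 0 of 9319 features passed between the ESC crosses, 272 had an unadjusted p under 0.05, and DESeq2 called 14. Between the crosses 0.028% of features passed at day 12 and 0.07% at day 21. In the animals the share was 3.49% (E13.5) and 4.44% (P0).

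Neighbouring genes were taken from a list of 10 around the domain, of which 5 had rows. Peg3as, an antisense transcript of the domain, had 8 read bases over all 25 libraries, all paternal, too few for a test. Aurkc, a kinase gene, had 38 read bases in ESCs, of which 18 were maternal (47.4%, exact 95% interval 31.0% to 64.2%), and 9 or fewer at each other stage. Clcn4-2, a chloride transporter gene, and the zinc finger genes Zfp667 and Zfp773 were read from both parental copies. Their pooled maternal share ran from 47.3% to 54.8% for Clcn4-2, 45.4% to 52.6% for Zfp667 and 40.7% to 50.9% for Zfp773 over the 5 stages, and none of the 3 passed in the parental test at any stage (adjusted p at least 0.751, edgeR quasi-likelihood test). Pooling the crosses hides strain bias. Clcn4-2 at P0 was 68.95% maternal in BJ1 and 33.55% in JB6, and Zfp773 at day 21 was 76.6% and 19.2%. Their strain terms there were 1.07 (adjusted p 6.71e-24) and 1.88 (adjusted p 6.42e-05, edgeR quasi-likelihood test). Strain terms passed for 48.2% of all features at P0 and 34.4% at day 21. Zim2, Zim3, Zfp264, Apeg3 and Peg3os were not analysed here.

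Factors known to act at imprinting control regions or to maintain DNA methylation were taken from a list of 11, of which 8 to 10 were tested between stages. From ESCs to day 12, 8 of 10 fell and 1 rose, where 77% of all features passed in either direction, with a median of -1.73 against 0.08 over all features. The largest 3 changes on the log2 scale were those of the methylation cofactor Dnmt3l (-7.84 ± 0.40, adjusted p 2.23e-10), Dppa3 (-6.61 ± 0.53, 5.79e-11) and Dnmt3b (-4.79 ± 0.24, 2.53e-15, edgeR quasi-likelihood test). Of the others, Zfp57, which binds methylated imprinting control regions, fell by 3.42 ± 0.24 (adjusted p 2.51e-12), and its corepressor Trim28 fell by 1.85 ± 0.16 (5.85e-11). The de novo methyltransferase gene Dnmt3a rose by 1.06 ± 0.15 (4.24e-07), and Yy1, which encodes a factor known to bind the Peg3 control region, gave -0.37 ± 0.17 (adjusted p 0.0547, edgeR quasi-likelihood test). Between day 21 and P0, 3 of 8 were higher in culture and 2 lower, where 80.7% of all features passed, with a median of 0.10 against 0.00 over all features. Uhrf1, which recruits the maintenance methyltransferase, was higher in culture by 1.79 ± 0.12 (adjusted p 7.5e-13), and Zfp57 and Zfp445 were lower, with log2 differences of -2.78 ± 0.22 (2.09e-11) and -2.10 ± 0.26 (8.6e-08). Between day 12 and E13.5, 2 of 8 were higher in culture and 3 lower (79.5% of features passed). From day 12 to day 21 (51.1% passed) and from E13.5 to P0 (75.5% passed) 1 of 8 rose and 4 fell.

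Genes with the most similar levels were sought among 9351 features by Pearson correlation of log2 levels over the 25 libraries, which share stage, cross and depth, so the values are descriptions. Peg3 was most like Lpp (0.98), Fndc3b (0.94), Rassf8 (0.92), Amotl2 and Mbnl2 (0.91 each). Zim1 was most like Sept4, Synpo (0.97 each), Slit3, Cdc42ep1 and Itpr2 (0.96 each). Usp29 was most like 8430427H17Rik and Ptprd (0.98 each), Tmem106b, Rnf24 and Osbpl6 (0.97 each). No gene was named for more than 1 member.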

How the data were processed

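Allele-specific RNA-seq was deposited for 25 hybrid libraries at 5 stages; 6 libraries of non-hybrid E14 cells were not analysed here. The deposited values are raw counts of sense read bases per gene and parental allele, made by the authors with SAMtools mpileup 0.1.18 and summed over strain differences annotated to UCSC refFlat genes on mm9, per the description deposited with the tables. The submitters' processing notes also name CASAVA 1.8.2, Novoalign, HTSeq and edgeR. Libraries were made from Trizol total RNA with a stranded mRNA kit, per the labels' protocols. The description states that 6252 of 12508968 strain differences with CBA or DBA sequence were removed, while its summary gives 37985.

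Counts were tested with edgeR 4.0.16 (robust quasi-likelihood, R 4.3.3) with 1 column per allele and library and terms for library, strain and parent. The minimum for a feature was an average of 20 read bases per library within the stage tested. Differences in parental or strain terms needed it in each of both stages, and level contrasts needed it for the mean of both stages. Parental and strain tests left out the X, Y and mitochondrial chromosomes. Benjamini-Hochberg adjustment ran over every feature tested, with a threshold of 0.05. Stages were contrasted in a joint fit. Total and single-allele levels used TMM scaling with stage and cross. Log2 values are given with an SE, the absolute log2 value over the square root of the quasi-likelihood F. Where a copy had few read bases, this SE can be smaller than the counting error. Simulated counts with 200 changed features were used for the parental test at day 12 and the difference in parental ratio between day 21 and P0. They were also used for total levels from ESCs to day 12, and the other fits were not checked in this way. Shares have exact Clopper-Pearson 95% intervals, and the limit of a level of 0 is 3 counts.

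Alternatives were DESeq2 1.42.0, limma 3.58.1 on log2 ratios, no minimum, counts divided by 3 and rounded, other scaling, female libraries only, a replicate block and leaving out each library. Fits within a cross and contrasts of strain terms were chosen after seeing the data. The members were always named, neighbours and factors came from set lists, and similar genes were the 5 with the highest correlation. Members and lists were chosen with earlier results of these data known.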

Additional observations from a re-analysis of the deposited data

Results flagged for a closer look

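In E13.5 BJ1 replicate 3 the maternal share of Usp29 was 2.35% (2 of 85 read bases), and that of the other 5 E13.5 libraries was 0%. The exact 95% upper limits of those 5 ran from 3.66% to 10.3%, each above 2.35%, and the difference between the libraries was not tested. This was 1 of 29 sets of 4 to 7 libraries examined for an outlying value, and chance marks about 1 in 20 such sets.

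The crosses differed in how Usp29 was shared between the copies. The strain term was -1.74 at day 12, -1.63 at day 21 and 1.59 at P0, and the change of that term between day 21 and P0 was -3.22, each past the threshold of edgeR's quasi-likelihood test. For Peg3 the strain term was 0.82 at day 12 and 1.10 at day 21. For Zim1 it was -0.72 at day 12 and 0.47 at P0. The part of wrongly assigned alleles in these terms was not tested. The maternal share of Peg3 was higher in both BJ1 libraries than in both JB6 libraries at day 12 and at day 21, and that of Usp29 lower in both BJ1 libraries at each of these days. Strain terms passed for 35.9% of all features at day 12 and 34.4% at day 21, and how many features separate the crosses in this way was not counted.

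Culture and cortex differed in parental bias between day 21 and P0 by 5.38 for Zim1, with all 4 culture libraries above all 7 cortex libraries in maternal share. The same difference was 4.17 for Usp29, whose maternal share in the 4 culture libraries (4% to 33.3%) lay above that of the 7 cortex libraries (0% to 2.76%).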

How the results depend on the processing

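Of the parental ratios at each stage, 124 of 126 recomputed values kept direction and side of the threshold. The exceptions were Peg3 in limma on log2 ratios, at -6.18 in ESCs (adjusted p 0.324) and -6.98 at day 12 (adjusted p 0.0738). Of total levels between stages, 227 of 229 kept both, and of paternal copy levels 166 of 170. Fewer did so among strain terms (87 of 109), differences in parental ratio between stages (140 of 157), maternal copy levels (154 of 170) and total levels between crosses (89 of 97, of which 1 in DESeq2 has no adjusted p and is counted by direction). Zim1 at day 21 against day 12 passed with counts divided by 3 (-0.59) and Peg3 at P0 against E13.5 passed among female libraries (-0.44). The cause was not tested for any of these.

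Differences in parental ratio between stages that did not pass also changed sign. With counts divided by 3 they were -0.29 for Peg3 from ESCs to day 12, -0.041 for Zim1 from day 12 to day 21 and -0.41 for Usp29 from E13.5 to P0. In limma they were -0.80 for Peg3 from ESCs to day 12, -0.15 for Usp29 from E13.5 to P0 and -0.040 for Peg3 between day 12 and E13.5. Usp29 between day 12 and E13.5 passed in limma (3.27).

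Leaving out 1 library at a time, the difference in parental ratio ran from -0.25 to 0.54 for Zim1 from day 12 to day 21, from -0.12 to 0.53 for Peg3 from ESCs to day 12, from -0.57 to 0.075 for Peg3 from day 12 to day 21, from -0.28 to 0.89 for Peg3 between day 12 and E13.5 and from 3.97 to 5.03 for Usp29 between day 21 and P0. Strain terms ran from -0.23 to 0.63 for Zim1 at day 21 and from -0.14 to 1.44 for Usp29 at E13.5. The strain term of Peg3, which did not pass at E13.5 or P0, passed at E13.5 without BJ1 replicate 2 (0.95, adjusted p 0.04) or JB6 replicate 2 (1.52, adjusted p 0.0112) and at P0 without BJ1 replicate 1 (1.69, adjusted p 0.0461). The maternal copy of Usp29 from day 12 to day 21 ran from -0.13 to 0.97. Between crosses, total levels ran from -1.10 to 3.45 for Peg3 in ESCs, from -0.63 to 0.47 for Peg3 at day 12 and from -0.15 to 0.48 for Zim1 at day 21. The rise of the maternal copy of Usp29 from E13.5 to P0 (2.58, adjusted p 0.0474) was lost without any of 9 libraries and with counts divided by 3.

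Replicate numbers were not taken to pair libraries: deviations of same-numbered libraries correlated from -0.363 to 0.316. With the replicate block no member changed its call; Peg3 between the ESC crosses, which did not pass, changed sign (1.03, adjusted p 0.9999). The block moved the features called between crosses from 0 to 25 in ESCs, 3 to 46 at day 12, 8 to 181 at day 21 and 363 to 591 at E13.5, where DESeq2 called 14, 106, 75 and 607, and from 479 to 404 at P0. For the parental ratio edgeR called 126, 184 and 153 features in ESCs, at day 12 and at day 21, and DESeq2 77, 93 and 98. With all 3 numbers shared, every library correlated best with its own number in 2 of 6 pairs of groups.

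Depth limits Usp29 in culture and Zim1 at E13.5 and in ESCs, where libraries held 0 to 59 read bases of the gene, and a share from such a library carries a wide interval.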
